A study of Bos taurus with 24 samples.

Results

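Respiratory complex I, the NADH:ubiquinone oxidoreductase of the inner mitochondrial membrane, takes electrons from NADH, passes them along a chain of iron-sulfur clusters to ubiquinone and pumps protons out of the matrix. Its matrix arm holds the redox centres and its membrane arm holds the proton pumps. The catalytic core is shared with bacteria, the pumps are encoded by mitochondrial DNA, and the remaining subunits and the assembly factors are nuclear genes, most of them named NDUF. Oocytes carry a large store of mitochondria and of maternal mRNA, and much of that mRNA is degraded or translated while the oocyte matures with transcription switched off. The genes described here were all rows of the deposited table whose symbol starts with NDUF, 46 of 11306 rows. By role they were 7 nuclear-encoded core subunits, 9 accessory subunits of the matrix arm, 21 accessory subunits of the membrane arm, 7 assembly factors named NDUFAF, and NDUFA4 with its relative NDUFA4L2, of which NDUFA4 is now placed in complex IV. The mitochondrially encoded subunits and NDUFAF8 were not analysed here.

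RNA was measured in 24 libraries of oocytes from adult Angus-based crossbred Bos taurus beef cows that were neither lactating nor pregnant, with no genetic modification named. Oocytes were aspirated from the ovaries by ultrasound-guided ovum pick-up in May (spring) or July (summer, the heat stress season of the study), and were taken either at the germinal vesicle stage (GV) or at metaphase II (MII) after in vitro maturation of the cumulus-oocyte complexes, so that the 4 groups were GV May, GV July, MII May and MII July with 6 libraries each. According to the methods, cumulus cells were stripped before lysis and every library was made from 4 pooled oocytes of 1 cow, whereas the protocol in the labels speaks of single cells. The methods also state that the same cows were aspirated at each session, with the oocytes of each cow divided between GV and maturation. Libraries of different groups could therefore come from the same cow, and the labels do not mark which. GV and MII libraries differed in the time in culture as well as in the stage, and May and July differed in the collection date, so season, date and any batch of handling cannot be told apart.

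The deposited values are called FPKM. After the constant 0.01 was subtracted, a value multiplied by the span of its gene (stop minus start, introns included) was a whole multiple of 1 step per library, within 0.1 of a fragment, for 98.2% of 236899 values, where 20% would be whole by chance. The values were therefore fragments per kilobase of gene span rather than of exon, and the number of fragments behind each value could be recovered. Of the 46 genes, 45 gave whole fragments in all 24 libraries, and NDUFA2 did so in 20.8% of libraries, so its fragment counts are uncertain. A gene with long introns has a low FPKM on this scale, and levels are compared below between groups for each gene, and between genes only as recovered fragments per 1000000 fragments of the library (FPM). The values are shares of a library made from captured mRNA. Fewer transcripts of a gene per oocyte, a smaller part of them captured and more transcripts of other genes therefore cannot be told apart. A fall or rise below is a change of that share.

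The libraries held 324652 to 28207692 recovered fragments (median 3836570), and 3 of the 24 were of low depth, under 0.5 of the median library by the value that 1 fragment took: GV May replicate 6, MII May replicate 6 and GV July replicate 2. The last held 2543612 fragments, 0.663 of the median total, and was low by the value of 1 fragment only. GV May replicate 3, at 0.701 of the median total, was not counted as low. The values of each library summed to about 86768, so the value of 1 fragment also depends on the spans of the genes that hold the fragments. GV July replicate 2 is therefore called low-depth below by that value and not by its total. All 9 oocyte markers tested were detected in every library, with DPPA3, a maternal chromatin factor, at 1963 FPM or more. The summed level of 17 cumulus and granulosa cell markers was 552 to 3718 FPM in GV May, 479 to 1141 in GV July, 383 to 1220 in MII May and 291 to 939 in MII July, and the highest value of the first 3 groups lay in their low-depth library. The FSH receptor gene FSHR was at 0 in 4 to 6 of the 6 libraries of each group, and AMH, a granulosa cell hormone gene, in 2 to 6. In GV May they nevertheless reached 11.5 and 90.4 FPM. Others of the 17, namely HAS2, PTGS2, KRT8, KRT18 and STAR, were detected in all 24 libraries. In GV May, KRT18 reached 2587 FPM and VIM, a further marker, 1410, against medians of 11.4 and 4.34. The KRT18 and VIM peaks together exceed the highest sum of 3718, so a GV May library of ordinary depth held such a peak. Leaving out the low-depth libraries does not remove that library. HAS2, a hyaluronan synthase gene, was at 10.8 to 57.8 FPM over the 12 GV libraries against 60.1 to 193 over the 12 MII libraries, and median STAR, of steroid synthesis, was 444 and 373 at GV against 254 and 235 at MII. The part of remaining cumulus cell RNA in the results was not tested, and counts are given below with and without the low-depth libraries. Of the 46 genes, NDUFB11 and NDUFV2 lay wholly inside the span of another listed gene on the opposite strand, and NDUFA2, NDUFA4L2 and NDUFB9 overlapped one in part. The library kit is not stated to mark strand, so the reads of such a pair cannot be told apart where they overlap.

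All 46 genes were over 0.1 FPKM in at least 1 library and were tested. Together they took 0.875% to 2.31% of all fragments in GV May (median 1.44%), 0.818% to 1.58% in GV July (median 1.43%), 0.577% to 1.13% in MII May (median 0.846%) and 0.723% to 1.07% in MII July (median 0.953%). The share was lower at MII than at GV by its median in both months, and the stages overlapped only through the low-depth GV libraries: without the low-depth libraries, the lowest GV share was 1.29% in May and 1.33% in July, above the highest MII share of either month. Over the 12 GV libraries, the most abundant transcripts by median were NDUFAB1, the mitochondrial acyl carrier protein, at 1382 FPM, NDUFB4 at 1145 and NDUFS5 at 887, and the least abundant were NDUFAF1 at 14.2, NDUFAF6 at 9.06 and NDUFA4L2 at 1.76. At MII the order had changed at the top, with NDUFB4 at 1065, NDUFAB1 at 885, NDUFA6 at 784 and NDUFA4 at 753 FPM, and NDUFS5 and NDUFA8, which followed NDUFB4 at GV, were no longer among the first 5. Neighbours in these orders were not tested against each other.

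**Figure D1:**
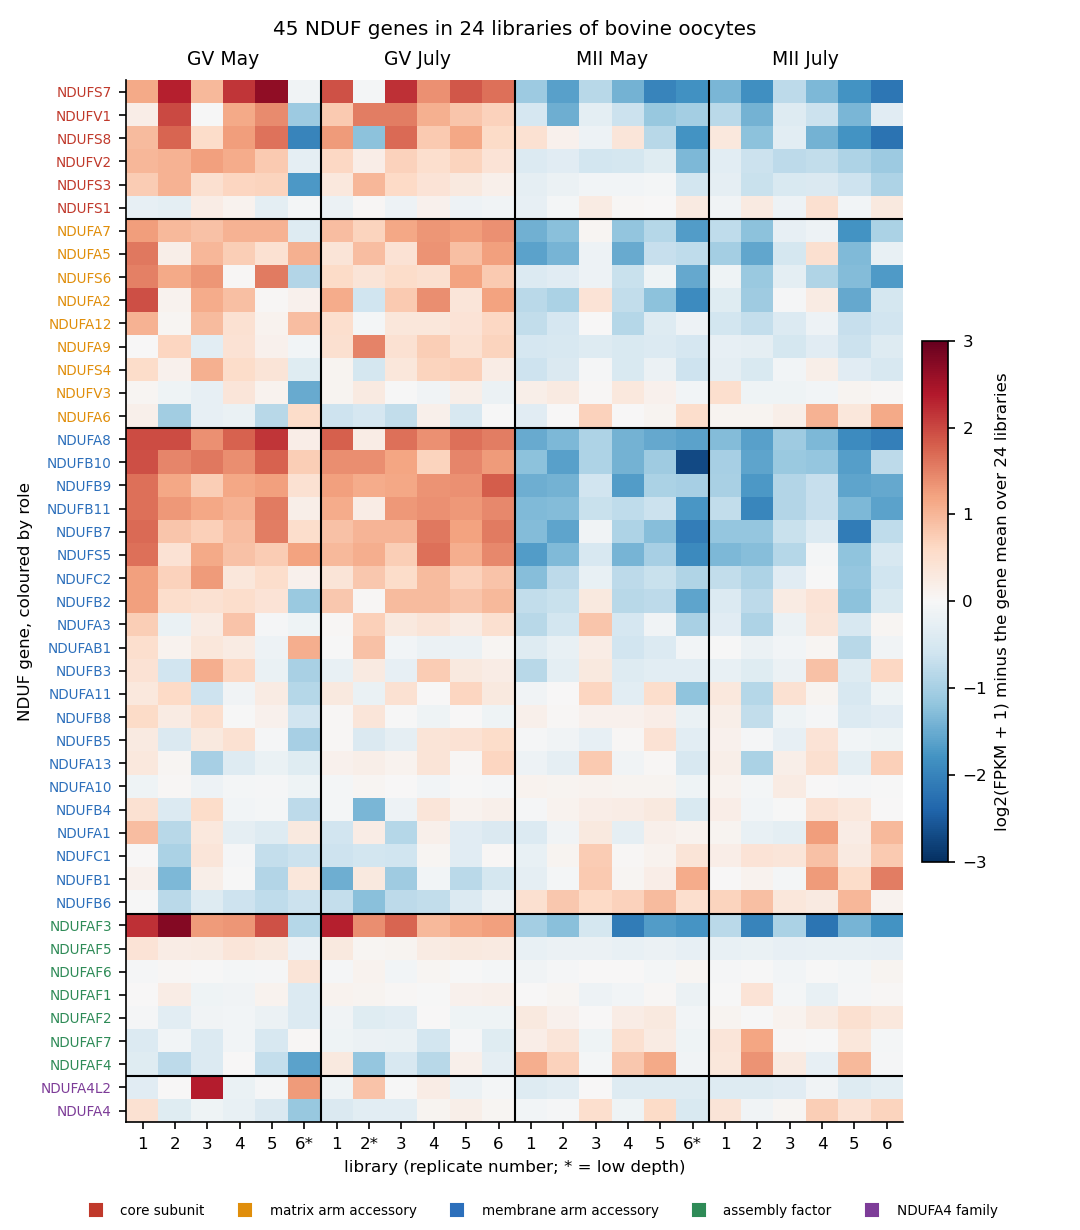
Each row is 1 of 45 NDUF genes, ordered within its role by the mean change from GV to MII, and each column is 1 of the 24 libraries. Colour gives log2(FPKM + 1) minus the mean of the gene over the 24 libraries, from -3 (blue) to 3 (red), and asterisks mark the 3 low-depth libraries. The upper genes of the first 3 roles are red in the 12 GV libraries and blue in the 12 MII libraries, while most lower genes of each role vary with no such division. NDUFB6, the last row of the membrane arm role, goes the other way, with every MII library above every GV library of its month.

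To describe what happens to complex I transcripts during maturation, MII was compared with GV oocytes within each month. In May, 17 of the 46 genes were lower at MII and 2 were higher at a fold over 2 with an unadjusted p under 0.05 (limma on log2(FPKM + 1)), where 8.25% of all 9526 genes tested were called lower and 3.57% higher. In July, 19 of the 46 were lower and 2 higher, against 9.26% and 2.2% of all genes. The share of the NDUF genes called lower was 37.0% in May and 41.3% in July. The median log2 change of the 46 genes was -0.55 in May and -0.46 in July, against -0.03 and -0.02 over all genes tested. The decline was not uniform across the complex: 16 genes were called lower in both months, NDUFB6 was called higher in both, and 23 were called in neither. For all genes only the shares called in single months are given here, so these joint counts have no such share beside them.

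With p adjusted over all genes tested (Benjamini-Hochberg, under 0.05, any fold), 19 NDUF genes were lower and 3 higher in May, where 14.7% and 9.45% of all genes passed, and 23 were lower and 5 higher in July, where 23.1% and 7.67% passed. In 13 genes in May and 17 in July, every MII library was below every GV library, as was the case for 8.98% and 14.7% of all genes. The reverse, every MII library above every GV library, held for 1 gene in May and 2 in July, against 4.65% and 3.07% of all genes. Without the 3 low-depth libraries, 18 genes were called lower and 2 higher in May, and 17 lower and 2 higher in July. Of all 9526 genes tested, 1228 were then called in either direction in May and 1195 in July, against 1126 and 1092 with all libraries. The background thus rose, while the July count of NDUF genes called fell from 21 to 19. Among genes with a mean of at least 1 FPKM, 38 were NDUF genes, and 17 of them were called lower and 2 higher in May, against 20.7% and 9.28% of such genes, and 18 lower and 2 higher in July, against 23.3% and 5.76%. Among these better expressed genes, the NDUF share called lower thus stood nearer to the background, and genes of low FPKM can hardly reach a 2-fold change after 1 is added.

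In FPM, a scale chosen after seeing the data, 23 of the 46 genes (50.0%) were called lower in each month, against 26.6% of all genes in May and 29.9% in July. On this scale 2 were called higher in May and 3 in July, where the background was 9.17% and 4.67%. Here the median log2 change was -1.07 in May and -1.13 in July, and that of all genes tested was itself -0.34 and -0.33, so changes on this scale are read relative to that shift. The 16 genes called lower in both months on the FPKM scale were all called lower in both months on this one as well. A further 5 genes, with NDUFA3, NDUFA4L2, NDUFAF5 and NDUFS4 among them, were called lower in 1 or both months in FPM but in neither month in FPKM, and NDUFAF2 was called higher.

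**Figure D2:**
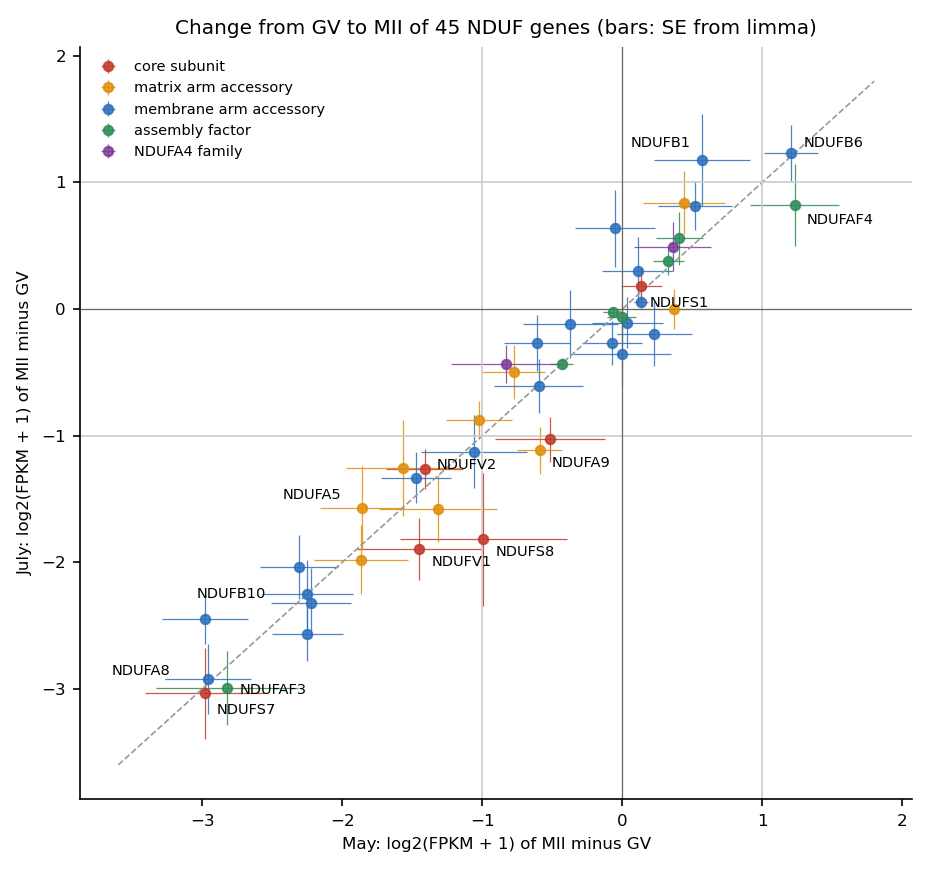
Each point is 1 of 45 NDUF genes, with the change of log2(FPKM + 1) from GV to MII in May on the x axis and in July on the y axis, and bars of 1 SE from limma. The dashed line marks equal change and the grey lines a 2-fold change. The points lie along the dashed line from about -3 for NDUFS7, NDUFA8 and NDUFAF3 to above 1 for NDUFB6.

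The changes of the 2 months had the same sign in 43 of the 46 genes, the exceptions being NDUFA1, NDUFA13 and NDUFB5, whose changes were not called in either month. Over the 46 genes the changes of May and July had a Pearson r of 0.962, a description across genes, which are not independent replicates. The GV and MII libraries of the 2 months were different libraries, but according to the methods the same herd of cows was aspirated in both months. The 2 months are therefore not independent sets of animals. The mean change of a gene over both months had a Pearson r of 0.35 with its log2 span and of -0.27 with its mean GV level, likewise as a description across genes of the same libraries. The 46 genes lay on 23 chromosomes, up to 6 of them on 1 chromosome (chromosome 7), with NDUFA1 and NDUFB11 on X, and spanned 1124 (NDUFAF3) to 171050 bases (NDUFAF2).

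The core subunits carry the flavin and the iron-sulfur clusters. Of the 7, 3 were called lower at MII in May and 5 in July, and none was called higher. As a group they made up 268 to 1807 FPM in GV May (median 1342), 561 to 1484 in GV July (median 1063), 182 to 411 in MII May (median 361) and 191 to 391 in MII July (median 241). In July the stages did not overlap in the summed core transcripts with all libraries included. In May they overlapped through the low-depth GV library only. Without the low-depth libraries the lowest GV value was 1068 in May and 972 in July.

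NDUFS7, on chromosome 7, 45427304 to 45433439 of UMD3.1, encodes the subunit with the last iron-sulfur cluster before ubiquinone. Its level was 5.01 to 40.1 FPKM (median 20.5) in GV May and 5.25 to 28.6 (median 20.9) in GV July. In MII oocytes it was 0.636 to 2.66 (median 1.26) in May and 0.444 to 2.76 (median 1.19) in July. Every MII library lay below every GV library of its month, the low-depth ones included, and the medians differed 16.3-fold in May and 17.6-fold in July. NDUFS7 fell, with changes of -2.98 ± 0.43 (SE) in May and -3.03 ± 0.36 in July on the log2(FPKM + 1) scale (limma adjusted p = 0.00049 and 7.4e-05), the greatest fall of the 16 genes in both months on that scale. In FPM a membrane arm gene fell most, at -3.99 in May and -4.08 in July. NDUFS7 changed there by -3.94 and -4.02. The NDUFS7 values rested on 18 to 2174 fragments per library in GV May, 131 to 9298 in GV July, 8 to 129 in MII May and 15 to 173 in MII July.

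NDUFV1 and NDUFV2, of the module that takes electrons from NADH, were called lower in both months. NDUFV1, which binds NADH and the flavin, was at 0.582 to 12.2 FPKM (median 4.6) in GV May and 4.39 to 8.72 (median 5.45) in GV July, against 0.214 to 1.73 (median 0.911) in MII May and 0.250 to 1.65 (median 1.03) in MII July. It fell, with changes of -1.45 ± 0.45 in May and -1.90 ± 0.25 in July (limma adjusted p = 0.032 and 0.00013). The groups overlapped in May, where the low-depth GV library had the lowest GV value, and did not overlap in July. NDUFV2, its iron-sulfur partner, was at 3.17 to 10.8 FPKM (median 9.15) in GV May, 4.76 to 7.05 (median 6.34) in GV July, 0.967 to 2.92 (median 2.60) in MII May and 1.35 to 3.02 (median 1.94) in MII July. The stages did not overlap in either month, and it fell, with changes of -1.41 ± 0.27 and -1.26 ± 0.16 (limma adjusted p = 0.0032 and 0.00011), with the July change at -0.95, under 2-fold, after quantile normalization. NDUFV2 lies inside the span of SERPINB2 on the other strand, so that its counts could include reads of that gene.

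NDUFS3 and NDUFS8 were called lower in July only when all libraries were used. NDUFS3, a subunit of the module that connects the cluster chain with ubiquinone, was at 1.29 to 14.4 FPKM (median 10.9) in GV May, 7.36 to 14.1 (median 8.73) in GV July, 4.14 to 6.29 (median 5.91) in MII May and 2.95 to 5.22 (median 4.17) in MII July. Its change was -0.51 ± 0.39 in May (limma adjusted p = 0.35), and it fell by 1.03 ± 0.18 in July (adjusted p = 0.00096). The low-depth GV May library, at 1.29 FPKM, was far below the other 5, and without the low-depth libraries the May change was -0.85 ± 0.14 (adjusted p = 0.0012). The July call rested on the 2-fold limit: the change was -0.92 without GV July replicate 2 and -0.96 without MII July replicate 6, at an unadjusted limma p of 6.2e-05 and 0.00019. NDUFS8, which holds a pair of iron-sulfur clusters, was at 2.11 to 40.1 FPKM (median 25.5) in GV May, 4.19 to 38.5 (median 23.3) in GV July, 2.56 to 15.8 (median 11.3) in MII May and 1.63 to 14.4 (median 3.90) in MII July. It was the most variable of the 46 genes within groups, with a pooled SD of 1.40 in log2 FPM against a median of 0.68. Its change was -0.99 ± 0.60 in May (limma adjusted p = 0.24), and it fell by 1.82 ± 0.52 in July (adjusted p = 0.019). The lowest GV values of NDUFS8 lay in the low-depth libraries, at 2.11 FPKM from 5 fragments in May and at 4.19 in July, and without them it was called lower in both months, with changes of -1.23 ± 0.30 and -2.21 ± 0.42 (adjusted p = 0.0093 and 0.0018). With all libraries the groups overlapped in both months.

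NDUFS1 was called in neither month. NDUFS1, the largest subunit, with several clusters, was at 0.405 to 1.01 FPKM (median 0.554) in GV May, 0.519 to 0.901 (median 0.585) in GV July, 0.445 to 1.06 (median 0.764) in MII May and 0.543 to 1.40 (median 0.860) in MII July. Its changes were 0.14 ± 0.15 and 0.18 ± 0.14 in FPKM and 0.08 ± 0.30 and 0.19 ± 0.24 in FPM, none of which passed the test. Thus NDUFS1 stood at 36.0 and 38.9 FPM at GV and 44.9 and 46.4 at MII by median, May before July, while NDUFS7 went from 313 and 309 to 15.5 and 13.9. NDUFS1 also had the second smallest pooled SD of the 46 genes within groups, 0.39 in log2 FPM.

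**Figure D3:**
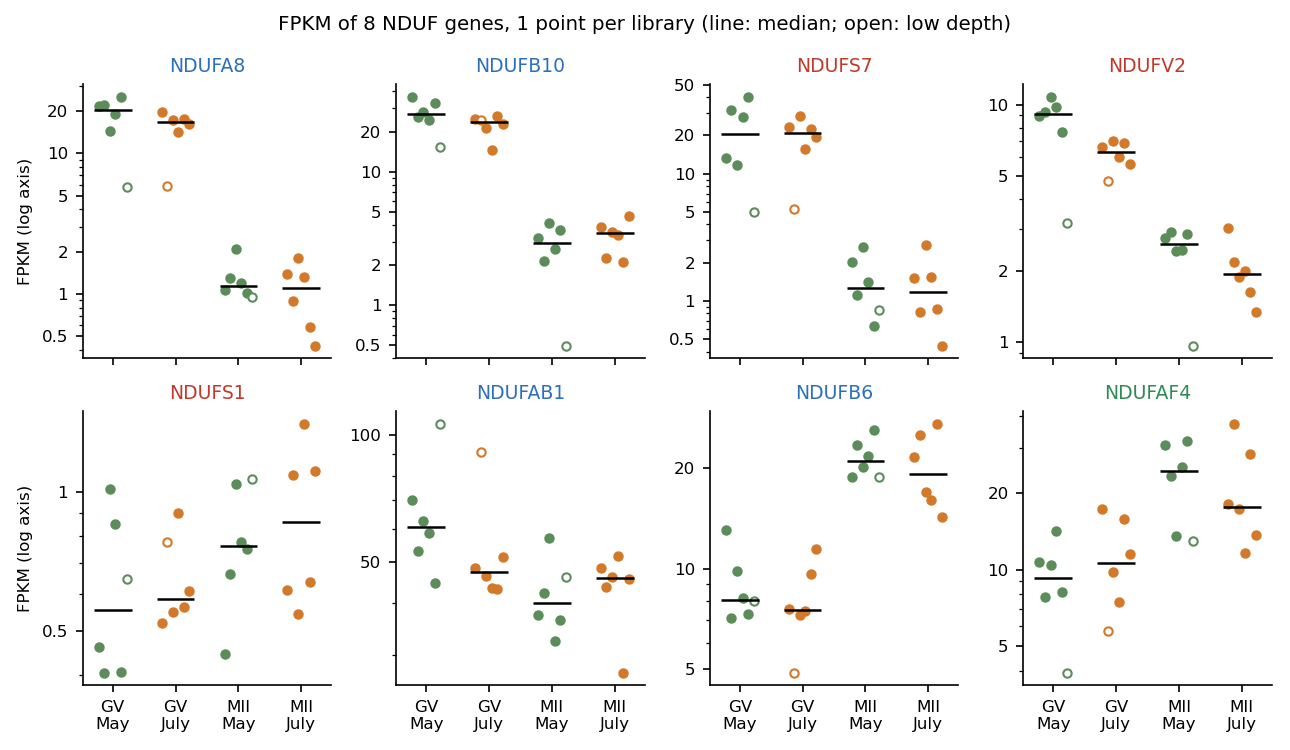
FPKM per library on a log axis for NDUFA8, NDUFB10, NDUFS7, NDUFV2, NDUFS1, NDUFAB1, NDUFB6 and NDUFAF4, with the 4 groups on the x axis, May in green, July in orange, the line at the median of 6 libraries and low-depth libraries as open points. The first 4 genes show MII points below all GV points of the same month, NDUFS1 and NDUFAB1 show overlapping groups, and all 6 MII points of NDUFB6 lie above all 6 GV points in both months.

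Among the 9 matrix arm accessory subunits, 5 were called lower in each month and none higher. NDUFA2, NDUFA5, NDUFA7 and NDUFS6 were called lower in both, NDUFA12 in May and NDUFA9 in July. NDUFA7, a small subunit of this arm, was at 6.33 to 21.9 FPKM (median 18.1) in GV May, 14.1 to 23.8 (median 21.1) in GV July, 1.96 to 8.87 (median 3.08) in MII May and 1.76 to 7.55 (median 4.26) in MII July. It fell, with changes of -1.87 ± 0.34 in May and -1.98 ± 0.27 in July (limma adjusted p = 0.0021 and 0.00019), and only the low-depth GV May library reached into the MII range. NDUFA5, a helical subunit of the matrix arm, was at 4.41 to 13.4 FPKM (median 7.80) in GV May, 5.28 to 11.2 (median 7.99) in GV July, 0.556 to 3.31 (median 1.31) in MII May and 0.621 to 5.61 (median 1.83) in MII July, with changes of -1.86 ± 0.30 and -1.57 ± 0.33 (limma adjusted p = 0.0011 and 0.0034). NDUFA5 did not overlap between stages in May, and its groups overlapped in July, where the highest MII library reached 5.61 and the lowest GV library was at 5.28 FPKM.

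NDUFA2, a thioredoxin-fold subunit close to NADH entry, was at 67.7 to 254 FPKM (median 97.9) in GV May, 43.4 to 175 (median 129) in GV July, 17.2 to 88.0 (median 35.6) in MII May and 22.2 to 78.5 (median 48.5) in MII July. It fell, with changes of -1.57 ± 0.41 and -1.25 ± 0.38 (limma adjusted p = 0.015 and 0.024), with overlapping groups in both months. NDUFS6, a zinc-binding subunit, fell, with changes of -1.32 ± 0.42 and -1.58 ± 0.27. NDUFA12 fell by 1.02 ± 0.23 in May (adjusted p = 0.0079) and lost the 2-fold call, at changes of -0.96 to -0.93, on leaving out any 1 of GV May replicates 1, 3 and 6 and MII May replicates 1 and 4. Its July change of -0.88 ± 0.15 had a limma adjusted p of 0.0011 and was under 2-fold, and in both months its stages did not overlap. In FPM NDUFA12 fell in both months, with changes of -1.8 ± 0.32 and -1.57 ± 0.28. The remaining members of the matrix arm, NDUFV3 at the tip and NDUFA6, an LYR-motif protein that anchors the acyl carrier protein, had changes of 0.37 ± 0.28 and 0.44 ± 0.29 in May and 0.00033 ± 0.16 and 0.84 ± 0.25 in July, and NDUFS4, needed to attach the NADH module, -0.78 ± 0.23 and -0.50 ± 0.21. Of these 3 genes, NDUFA6 in July and NDUFS4 in May passed the adjusted threshold, in opposite directions (limma adjusted p = 0.021 and 0.026). NDUFA6 did not pass it in FPM, where its July change was 0.66 ± 0.25.

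Of the 21 accessory subunits of the membrane arm, 8 were called lower in each month, the same 8 genes, while 1 was called higher in May and 2 in July. The 3 with the smallest p in both months were NDUFB10, NDUFA8 and NDUFB9. NDUFA8, a twin-cysteine-motif protein of the intermembrane space (chromosome 11, 93011813 to 93029731), was at 5.72 to 25.2 FPKM (median 20.3) in GV May and 5.88 to 19.6 (median 16.8) in GV July. At MII it was at 0.947 to 2.07 (median 1.13) in May and 0.427 to 1.8 (median 1.11) in July, and its median was 18.0-fold and 15.2-fold lower than at GV. NDUFA8 fell, with changes of -2.96 ± 0.31 and -2.92 ± 0.27 (limma adjusted p = 7.1e-05 and 1.7e-05) with no overlap of the stages. In recovered fragments, NDUFA8 had 60 to 4034 per library in GV May, 429 to 21194 in GV July, 26 to 293 in MII May and 42 to 330 in MII July.

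NDUFB10, a protein of the same twin-cysteine family (chromosome 25, 1517626 to 1520288), was at 15.4 to 36.4 FPKM (median 27.1) in GV May, 14.6 to 26.1 (median 23.7) in GV July, 0.495 to 4.14 (median 2.91) in MII May and 2.11 to 4.68 (median 3.45) in MII July. It fell, with changes of -2.98 ± 0.31 and -2.45 ± 0.20 (limma adjusted p = 7.3e-05 and 7.3e-06), and the lowest MII May value rested on 2 fragments in the low-depth library. NDUFB9, an LYR-motif protein that anchors a second acyl carrier protein, was at 18.4 to 43.8 FPKM (median 30.6) in GV May, 29.6 to 48.7 (median 33.6) in GV July, 3.43 to 8.43 (median 5.20) in MII May and 3.31 to 7.70 (median 5.08) in MII July, and fell, with changes of -2.25 ± 0.26 and -2.57 ± 0.21 (limma adjusted p = 0.00013 and 8.6e-06). The stages of both genes were separate in both months. The other 5, NDUFB11, NDUFB7, NDUFS5, NDUFC2 and NDUFB2, fell, with changes of -1.06 (NDUFB2) to -2.31 (NDUFS5) in May and -1.13 (NDUFB2) to -2.32 (NDUFB11) in July. NDUFB7 and NDUFS5 also belong to the twin-cysteine proteins, so all 4 NDUF genes of that kind were among the 16 called lower in both months, a grouping made after their values were seen. NDUFB2 was the weakest of the 16, with a May adjusted p of 0.058 in limma, and its change was -0.75 in May and -0.78 in July after quantile normalization, both under 2-fold, the May change also missing the p threshold. It was -0.88 without GV May replicate 1, -0.89 without MII May replicate 6 in May and, in July, -0.95 without MII July replicate 5.

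NDUFB6, a small single-pass subunit of the membrane arm (chromosome 8, 11372938 to 11389203), went the other way. It was at 7.10 to 13.1 FPKM (median 8.08) in GV May and 4.88 to 11.5 (median 7.53) in GV July, and at 18.8 to 26.1 (median 21.0) in MII May and 14.3 to 27.3 (median 19.3) in MII July. All 6 MII libraries were above all 6 GV libraries in each month, and the medians differed 2.60-fold and 2.56-fold. The change was 1.21 ± 0.19 and 1.23 ± 0.22 (limma adjusted p = 0.001 and 0.0012), and 1.02 ± 0.26 and 1.12 ± 0.31 in FPM, although in May it was 0.98 and thus under 2-fold with median-of-ratios scaling. NDUFB1, likewise a small single-pass subunit, was at 10.3 to 35.5 FPKM (median 29.2) in GV May, 9.38 to 34.5 (median 17.2) in GV July, 22.9 to 61.3 (median 30.5) in MII May and 26.6 to 82.0 (median 35.8) in MII July. It was called higher in July only, at 1.18 ± 0.36 (limma adjusted p = 0.026), or 0.99 without MII July replicate 6, and its May change was 0.57 ± 0.34. NDUFB1 overlapped between stages in both months.

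The other 11 membrane arm genes were called in neither month. Their May changes ran from -0.61 (NDUFAB1) to 0.52 (NDUFC1) and their July changes from -0.61 (NDUFA3) to 0.82 (NDUFC1). NDUFAB1, which also serves mitochondrial fatty acid synthesis, was at 44.5 to 106 FPKM (median 60.6) in GV May, 43.1 to 91.1 (median 47.3) in GV July, 32.5 to 57.1 (median 39.8) in MII May and 27.3 to 51.6 (median 45.8) in MII July. It had the smallest pooled SD of the 46 genes within groups, 0.29 in log2 FPM, and its change was -0.61 ± 0.23 and -0.27 ± 0.22 in FPKM (limma adjusted p = 0.074 and 0.38). NDUFC1, at the base of the membrane arm, was the only further gene of which all 6 July MII libraries lay above all 6 GV libraries (limma adjusted p = 0.0069). Of the 23 genes called in neither month, 14 had changes under 0.5 in both months in FPKM and 8 in FPM, among which were NDUFA4, NDUFB4, NDUFB8, NDUFS1 and NDUFV3.

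The 7 assembly factors, which build the complex and do not remain in it, differed in direction among themselves. NDUFAF3 was called lower in both months, NDUFAF4 was called higher in May, and the other 5 were not called. As a group they made up 182 to 699 FPM in GV May (median 489), 213 to 754 in GV July (median 486), 319 to 1007 in MII May (median 756) and 469 to 994 in MII July (median 655). The summed level was thus higher at MII by its median, with overlapping groups, while that of the core subunits was lower. The sum does not describe the single factors, whose median log2 FPM change was 0.03 in May and -0.35 in July. In FPM 3 of the 7 were lower and 4 higher in May, and 4 lower and 3 higher in July. NDUFAF4 alone went from a median of 199 to 424 FPM in May and from 225 to 341 in July.

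NDUFAF3 and NDUFAF4 are known to act together on the ubiquinone module. NDUFAF3, on chromosome 22, 51540979 to 51542103, was at 3.04 to 48.7 FPKM (median 21.9) in GV May, 13.4 to 35.7 (median 17.3) in GV July, 0.715 to 4.05 (median 1.67) in MII May and 0.614 to 3.21 (median 1.44) in MII July. It fell, with changes of -2.82 ± 0.51 and -2.99 ± 0.29 (limma adjusted p = 0.0021 and 2.2e-05). Its groups overlapped in May through the low-depth GV library, which held 2 fragments, and were separate in July. NDUFAF4, on chromosome 9, 53673441 to 53682100, was at 3.95 to 14.2 FPKM (median 9.29) in GV May, 5.76 to 17.4 (median 10.6) in GV July, 12.9 to 32.0 (median 24.3) in MII May and 11.6 to 37.3 (median 17.7) in MII July. It rose by 1.23 ± 0.31 in May (limma adjusted p = 0.013), which was just under 2-fold with median-of-ratios scaling, and its July change was 0.82 ± 0.32 (adjusted p = 0.071). In May the partners thus moved in opposite directions, with a median at MII 13.1-fold lower for NDUFAF3 and 2.61-fold higher for NDUFAF4 in May, although the stages of NDUFAF4 overlapped in both months.

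NDUFAF5, an enzyme that hydroxylates an arginine of NDUFS7, spans 24608 bases and has low FPKM values. It was at 0.0793 to 0.613 FPKM (median 0.444) in GV May, 0.249 to 0.471 (median 0.433) in GV July, 0.01 to 0.0664 (median 0.0492) in MII May and 0.01 to 0.0439 (median 0.0311) in MII July, where 0.01 stands for no fragment. The change on the log2(FPKM + 1) scale was -0.43 ± 0.08 and -0.43 ± 0.05, under 2-fold, with a limma adjusted p of 0.0033 and 4e-05. The stages did not overlap in either month: 1 to 154 fragments per GV May library and 24 to 765 per GV July library stood against 0 to 11 and 0 to 7 at MII. In FPM NDUFAF5 fell, with changes of -3.1 ± 0.57 and -3.57 ± 0.35 (limma adjusted p = 0.001 and 9.4e-06), beside -3.94 ± 0.55 and -4.02 ± 0.54 for its substrate NDUFS7.

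NDUFAF2, a relative of the subunit NDUFA12 that holds its place until a late step, spans 171050 bases. It was at 0.130 to 0.471 FPKM (median 0.360) in GV May, 0.158 to 0.504 (median 0.376) in GV July, 0.425 to 0.834 (median 0.690) in MII May and 0.496 to 1.08 (median 0.703) in MII July. Its change was 0.33 ± 0.11 and 0.38 ± 0.11 (limma adjusted p = 0.048 and 0.02) in FPKM and 0.87 ± 0.41 and 1.01 ± 0.36 in FPM. NDUFAF2 and NDUFA12 thus moved in opposite directions past the adjusted threshold in both months in FPKM, while in FPM NDUFAF2 passed it in July only. NDUFAF7, a methyltransferase of the mitochondrial matrix, was at 0.708 to 1.44 FPKM (median 1.01) in GV May, 0.608 to 1.31 (median 1.08) in GV July, 1.17 to 2.31 (median 1.76) in MII May and 1.27 to 4.38 (median 1.73) in MII July, with changes of 0.41 ± 0.17 and 0.56 ± 0.21 (limma adjusted p = 0.093 and 0.059). These changes did not pass the adjusted threshold.

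NDUFAF1, a partner of ECSIT in the complex that assembles the membrane arm, was at 0.01 to 0.560 FPKM (median 0.291) in GV May, 0.326 to 0.471 (median 0.415) in GV July, 0.177 to 0.396 (median 0.300) in MII May and 0.142 to 0.768 (median 0.305) in MII July. NDUFAF6, an early assembly factor, was at 0.0818 to 0.481 FPKM (median 0.112) in GV May, 0.0658 to 0.206 (median 0.109) in GV July, 0.0531 to 0.170 (median 0.120) in MII May and 0.0584 to 0.192 (median 0.109) in MII July. Both overlapped between the stages, with changes of -0.0045 ± 0.10 and -0.07 ± 0.07 in May and -0.06 ± 0.10 and -0.02 ± 0.04 in July. NDUFAF1 was read from 0 to 67, 25 to 467, 4 to 48 and 12 to 98 fragments per library in GV May, GV July, MII May and MII July, and NDUFAF6 from 10 to 40, 28 to 253, 9 to 36 and 18 to 37.

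**Figure D4:**
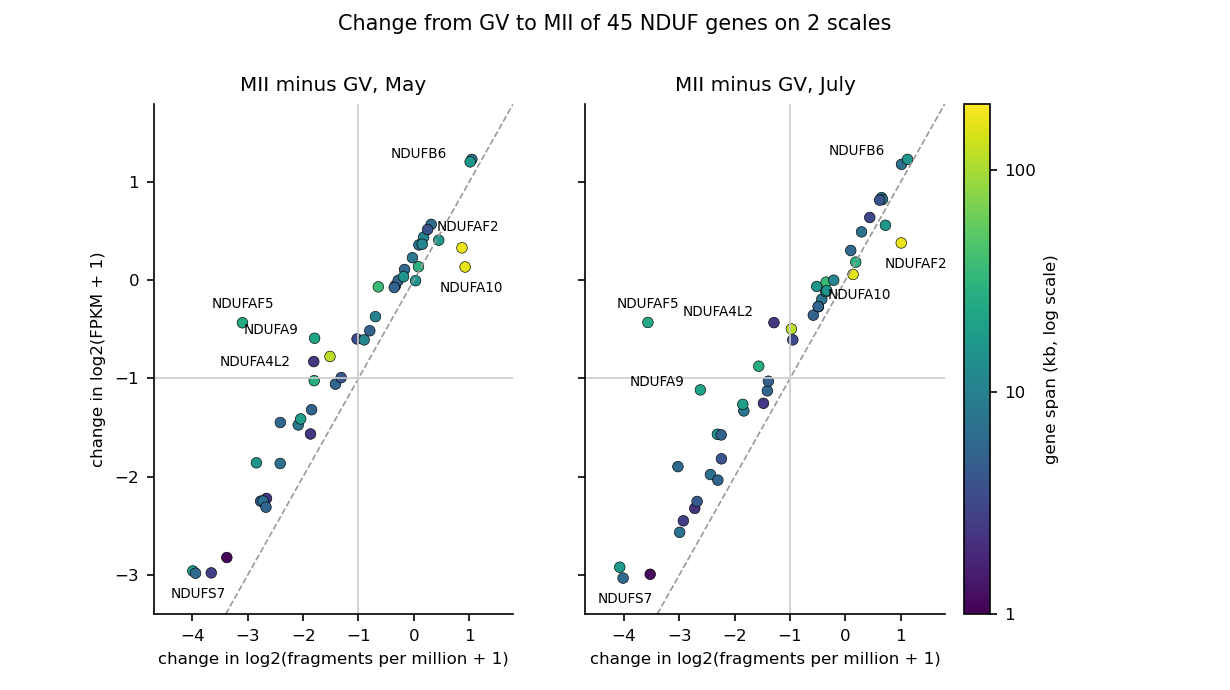
The change from GV to MII of 45 NDUF genes in log2(FPM + 1) on the x axis and log2(FPKM + 1) on the y axis, for May (left) and July (right), with colour for the gene span on a log scale, the dashed line for equal change and grey lines at -1. Most points follow a line shifted above the dashed one, and NDUFAF5, at about -3 to -4 on the x axis, reaches only -0.43 on the y axis.

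Of the 13 listed assembly factors that carry other names, 12 were tested. In FPKM, 1 (8.33%) was called lower in May, against 8.25% of all genes, and 3 of the 12 in July, against 9.26%. None was called higher, and the median change was -0.19 and -0.26. Only 4 of the 12 had a mean of at least 1 FPKM. In FPM, 6 (50.0%) were called lower in May and 4 (33.3%) in July, against 26.6% and 29.9%. With adjusted p under 0.05 at any fold in FPKM, 4 were lower in each month, against 14.7% and 23.1%. ACAD9 fell with no overlap of the stages, with changes of -0.31 ± 0.09 and -0.34 ± 0.04 (limma adjusted p = 0.024 and 7.2e-05), under 2-fold in FPKM. ECSIT, the signalling and assembly protein that partners NDUFAF1, was at 0.882 to 9.05 FPKM (median 3.39) in GV May, 2.39 to 5.77 (median 2.94) in GV July, 0.193 to 1.09 (median 0.414) in MII May and 0.112 to 0.944 (median 0.319) in MII July. It fell, with changes of -1.54 ± 0.36 and -1.69 ± 0.23 (limma adjusted p = 0.0082 and 0.00017). In July TMEM186, another member of that complex, fell by 1.17 ± 0.19 (adjusted p = 0.00071) and OXA1L, the insertase of the inner membrane, fell by 1.02 ± 0.21 (adjusted p = 0.0031), and their May changes were -0.67 ± 0.24 and -0.72 ± 0.15. NDUFAF1, the partner of ECSIT, did not pass the test in either month.

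NDUFA4 and NDUFA4L2 were not called. NDUFA4 was at 17.7 to 55.7 FPKM (median 32.7) in GV May, 29.6 to 45.4 (median 36.8) in GV July, 28.9 to 59.9 (median 38.4) in MII May and 37.4 to 67.9 (median 53.8) in MII July, with changes of 0.36 ± 0.28 and 0.49 ± 0.19 (limma adjusted p = 0.35 and 0.069). NDUFA4L2, known as a gene induced by hypoxia, had 1 to 85 fragments per GV May library, 5 to 26 in GV July, 0 to 6 in MII May and 0 to 3 in MII July. Its FPKM changes were -0.83 ± 0.40 and -0.43 ± 0.15 (limma adjusted p = 0.14 and 0.045), and 7 of the 12 MII libraries held no fragment of it.

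Other nuclear genes of the respiratory chain and the mitochondrial ribosome gave a comparison for the size of the change. Of 45 genes of complexes II to V, 19 were called lower in each month (42.2%) with 2 higher, and their median change was -0.80 in May and -0.67 in July. Of 77 mitochondrial ribosomal protein genes (MRPL, MRPS), 31 were called lower in May (40.3%) and 35 in July (45.5%), with medians of -0.60 and -0.82. The NDUF shares of 37.0% and 41.3% were close to these, and no test of the difference between lists was run. By complex, 2 of 8 genes of complex II, 5 of 9 of complex III, 5 of 11 of complex IV and 7 of 17 of complex V were called lower in May, and 2, 5, 6 and 6 in July.

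To describe whether season moved the complex I transcripts, July was compared with May within each stage. No NDUF gene was called in GV oocytes or in MII oocytes by limma, where 0.0315% and 0.042% of all genes were called. This was 3 and 4 of all 9526 genes tested, so the absence of calls among 46 genes does not set them apart. At an unadjusted p under 0.05 with no limit on fold, 2 of 46 genes passed in GV and 1 in MII oocytes, against 1.55% and 2.11% of all genes. No NDUF gene passed after adjustment, with every adjusted p at 1. None was called in FPM, where 75 of all genes were called in GV and 38 in MII oocytes. The median change from May to July was 0.02 in GV and 0.06 in MII oocytes with a median SE of 0.27 and 0.23, and 44 and 45 of the 46 changes were under 0.5 in size. At both stages 26 genes were higher in July and 20 lower, with no call among them. The groups of the 2 months overlapped in every NDUF gene at both stages. Of all 9526 genes tested, 4 were separate with July lower and 13 with July higher in GV oocytes. In MII oocytes 16 were separate with July lower and 1 with July higher. Such separation was thus rare among all genes, and its absence does not set the NDUF genes apart.

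In GV oocytes the smallest p belonged to NDUFA9, an accessory subunit of the matrix arm with a dehydrogenase fold. It was at 0.452 to 1.81 FPKM (median 0.902) in GV May and 1.48 to 4.10 (median 1.72) in GV July, and at 0.272 to 0.386 (median 0.316) in MII May and 0.166 to 0.528 (median 0.411) in MII July. Its GV difference was 0.58 ± 0.23 (unadjusted p = 0.023 in limma, 0.0152 in the exact permutation test, two-sided), and the highest July value, 4.10, came from the low-depth library. The same library decided its call at MII in July, where the change of -1.12 ± 0.18 became -0.96 without GV July replicate 2, and the stages of NDUFA9 were separate in both months. NDUFA13, also known as GRIM-19, was at 5.35 to 14.9 FPKM (median 9.5) in GV May and 12 to 18.8 (median 13.2) in GV July, a difference of 0.51 ± 0.23 (unadjusted p = 0.048 in limma, 0.0260 in the exact permutation test). NDUFA10, of the nucleoside kinase family, came next, at 0.0485 to 0.189 FPKM (median 0.0873) and 0.103 to 0.209 (median 0.145), with 0.07 ± 0.04 (unadjusted p = 0.12 in limma).

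In MII oocytes the smallest p was that of NDUFS3, at 4.14 to 6.29 (median 5.91) in May and 2.95 to 5.22 (median 4.17) FPKM in July, a difference of -0.37 ± 0.14 (unadjusted p = 0.026 in limma, 0.0152 in the exact permutation test). NDUFB8, a single-pass membrane arm subunit, followed at 19.5 to 26.1 (median 24.6) and 13.1 to 25.5 (median 19.0) FPKM, a difference of -0.32 ± 0.16 (unadjusted p = 0.071 in limma). NDUFS8 had the greatest difference in size, -0.81 ± 0.49 (unadjusted p = 0.12 in limma). It became -1.11 without MII May replicate 6, the low-depth library, and -1.10 without MII July replicate 1, which was a call in both cases. None of the 3 genes passed adjustment, and their May and July libraries overlapped.

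**Figure D5:**
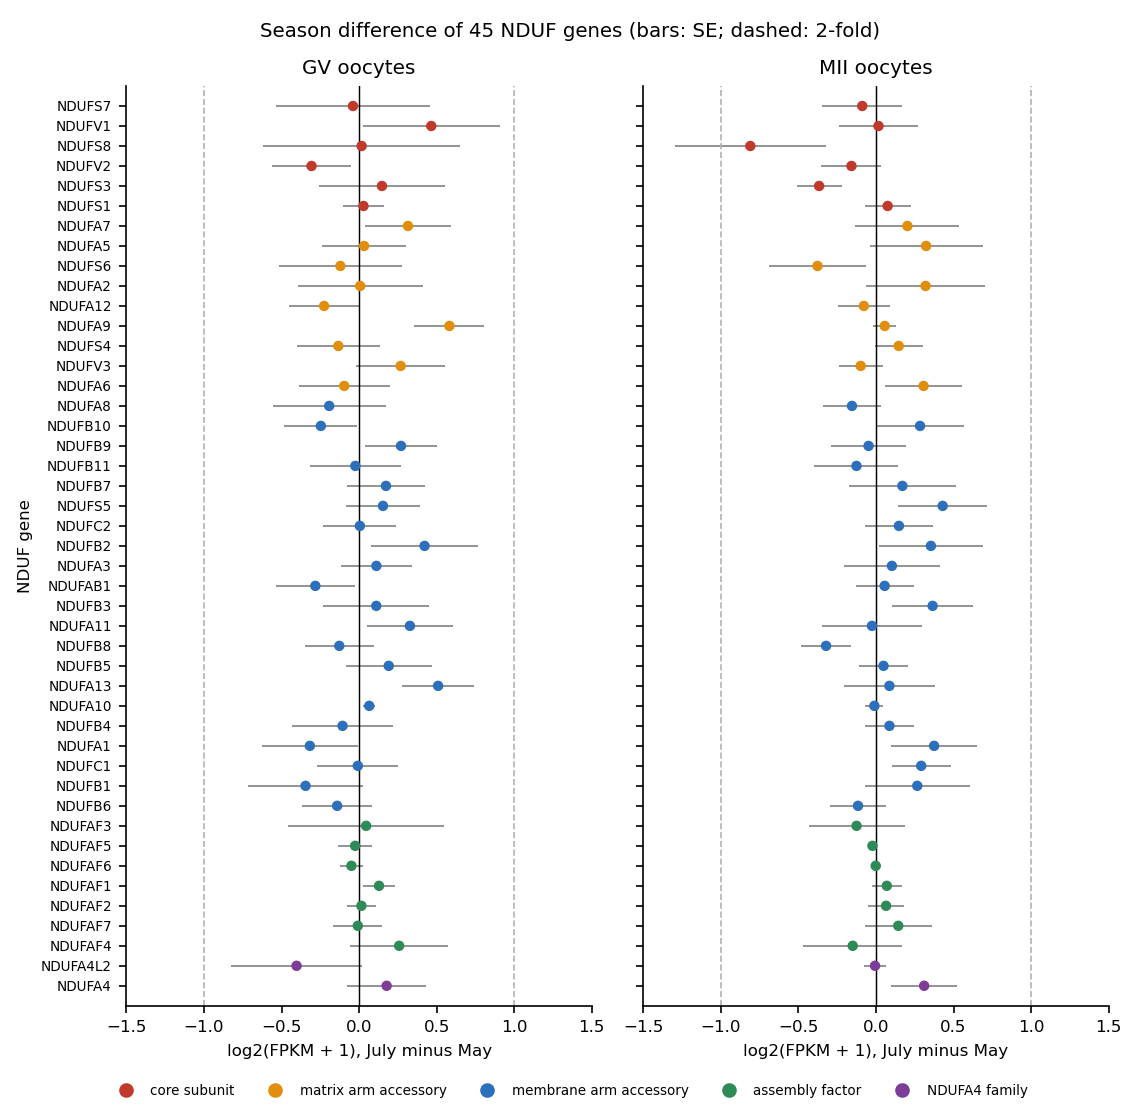
The difference of log2(FPKM + 1) between July and May for each of 45 NDUF genes, in GV oocytes (left) and MII oocytes (right), with bars of 1 SE from limma, colour for the role and dashed lines at a 2-fold difference. All points lie between the dashed lines, from -0.40 to 0.58 in GV and from -0.81 to 0.43 in MII oocytes.

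Whether the stage change itself differed between July and May was fitted over the 24 libraries. No NDUF gene was called, where 0.21% of all genes were, and 1 of 46 had an unadjusted p under 0.05, against 1.8% of all genes. That gene was NDUFA9, at -0.53 ± 0.24 (unadjusted p = 0.038, adjusted p = 1 in limma), whose high value in the low-depth GV July library enters this difference too. The median difference was 0.01 with a median SE of 0.37, which limits what 6 libraries per group can show, and the greatest in size was -0.83 ± 0.83 in NDUFS8. Calls made in 1 month only were those of NDUFA12 and NDUFAF4 in May and of NDUFA9, NDUFS3, NDUFS8 and NDUFB1 in July. None of these genes was called for the difference between months. Only NDUFA9 passed the unadjusted p threshold there, and it missed the 2-fold limit.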

How the data were processed

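RNA of 24 libraries of GV and MII oocytes, 6 per group, was sequenced by the authors as 100 bp paired-end reads after Smart-seq2 amplification. Per the labels and the submitters' processing notes, the reads were checked with FastQC, aligned with STAR 2.5.3a to UMD3.1 and quantified in Partek. The deposited values are FPKM of 11306 genes with the authors' coordinates, and the lowest value is 0.01.

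Here the 46 NDUF genes and all gene lists were chosen with earlier results of these data known. Groups came from the labels. The labels do not say that replicate numbers mark animals, so p-values measure the spread between these libraries. log2(FPKM + 1) of the 9526 genes over 0.1 FPKM in at least 1 library was fitted with limma 3.58.1 (trend, R 4.3.3), 2 groups per fit and all 24 libraries for the difference between months, and p was adjusted over all genes tested (Benjamini-Hochberg). Calls needed a fold over 2 with an unadjusted p under 0.05. Exact permutation tests used all 924 assignments, whose smallest two-sided p is 0.00216. Genes named in full were all core subunits and NDUFAF factors, the 3 accessory subunits per arm called lower in both months with the smallest p, all genes called higher and the 3 with the smallest p between months, and others are named as examples. The values of 1 gene that enters the counts are not reported here. Fragments were recovered as FPKM less 0.01, times gene span, divided by the library's step, and scaled to 1000000 per library (FPM). This alternative unit was chosen after seeing the data. No library pair held identical values. The fits were tested on simulated data.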

Additional observations from a re-analysis of the deposited data

Results flagged for a closer look

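In 25 of 184 sets of 6 libraries (1 NDUF gene in 1 group), the highest or lowest library stood apart, with a gap to its nearest neighbour that passed Dixon's critical value. Chance alone gives such a gap in about 1 in 20 groups. Of these, 18 lay in the 3 low-depth libraries, 8 each in GV May replicate 6 and GV July replicate 2 and 2 in MII May replicate 6. Values are FPKM.

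In GV May replicate 6, NDUFA7 stood at 6.33 below the other 5 libraries, as did NDUFAF5 at 0.0793, NDUFB2 at 6.08, NDUFS3 at 1.29, NDUFS8 at 2.11, NDUFV2 at 3.17 and NDUFV3 at 2.57, while the assembly factor NDUFAF6 stood above them at 0.481. In GV July replicate 2, NDUFA8 at 5.88, NDUFB11 at 14.0, NDUFB2 at 14.7, NDUFB4 at 28.5 and NDUFS7 at 5.25 stood below, and NDUFA9 at 4.10, NDUFAB1 at 91.1 and NDUFB8 at 28.9 above. MII May replicate 6 was low for NDUFA10 at 0.0704 and for NDUFV2 at 0.967. The part of depth in these values was not tested.

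The other 7 lay in libraries of ordinary depth. NDUFA4L2 was high at 0.338 in MII May replicate 3, from 6 fragments, and at 0.230 in MII July replicate 4, from 3 fragments. NDUFA8 was high at 2.07 in MII May replicate 3. NDUFB10 was low at 14.6 in GV July replicate 4, which was still above every MII library. In MII July, NDUFAB1 was low at 27.3 in replicate 5, the methyltransferase gene NDUFAF7 high at 4.38 in replicate 2 and NDUFV3 high at 13.4 in replicate 1.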

How the results depend on the processing

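The number of NDUF genes called between stages was 17 to 19 in May and 19 to 21 in July on leaving out 1 library at a time, and 17 to 25 and 19 to 26 under the other alternatives. Their median log2 change was -0.61 to -0.49 in May and -0.53 to -0.42 in July without 1 library. In May it was -1.07 in FPM, and in July -1.13 in FPM, -0.97 with a pseudocount of 0.1, -0.99 with none and -0.81 for genes of mean at least 1 FPKM. Quantile normalization gave 15 lower and 5 higher in July. Of 456 checks of single genes called in May, 11 ended the call, and of 503 in July, 11 did, and none turned the direction. Over all genes, 1126 were called in May and 1092 in July, against 2628 and 2521 with a pseudocount of 0.1, 3536 and 3592 with none, 3216 and 3331 by the ratio of group means and 3405 and 3294 in FPM.

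Between months, 1 NDUF gene was called in GV oocytes with no pseudocount and 1 by the ratio of group means, NDUFA9 in both cases, and 1 in MII oocytes without the low-depth libraries, NDUFS8. Without 1 library the counts of NDUF genes were 0 to 0 in GV, 0 to 1 in MII and 0 to 0 for the difference. Over all genes, 3 were called in GV and 4 in MII oocytes with the main settings. With no pseudocount these counts were 116 and 102, and by the ratio of group means 56 and 70. With the replicate block, 19, 21, 0, 0 and 0 NDUF genes were called, as without it. Over 36 pairs of libraries of the same number, the correlation of their deviations was -0.44 to 0.76, with 15 over 0.1. Between MII May and MII July it was 0.76, 0.68, 0.43 and 0.69 for replicates 1, 2, 5 and 6, and between GV July and MII July 0.53, 0.65 and 0.41 for replicates 1, 3 and 4, each library's best match, while other pairs were below 0. Not every pair passed 0.1 and the labels do not say what the number marks, so the libraries were not treated as paired. NDUFA4L2, NDUFAF1 and NDUFAF5 rested on few fragments in some libraries. Why results moved with a setting was not tested, beyond the pseudocount, which shrinks the changes of genes of low FPKM.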
